A study of Mus musculus with 4 samples.

Results

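The genes described here set how much cyclic AMP (cAMP) a cell holds and how it is read: 8 phosphodiesterases (Pde3a, Pde3b, Pde4a, Pde4b, Pde4d, Pde7b, Pde8a and Pde10a), the adenylyl cyclase Adcy5 and the protein kinase A subunit Prkar2b. They are 10 of 17173 protein-coding genes with at least 1 accessible region. They were chosen by name for their role, with earlier results of these data known. Chromatin accessibility was measured by single-nucleus ATAC-seq, in which a transposase marks open DNA, in inguinal white adipose tissue (iWAT), the subcutaneous fat pad of the groin, from 8-week-old male C57BL/6J mice. Mice kept at room temperature (22 °C, day0RT) were compared with mice exposed to cold (6.5 °C) for 1, 3 or 7 days (day1C, day3C, day7C) and with mice given the β3-adrenergic receptor agonist CL-316,243 at 1 mg/kg for 1, 3 or 7 days (day1CL, day3CL, day7CL), with 3 mice in each of the 7 groups. The cold temperature is that of the labels, and the study's methods section gives it as slightly lower. For each gene, entries of the peak matrix (a nucleus with reads in a peak) were summed over the gene body and 2000 bases upstream for each mouse and cell type. The level of a gene is its share of the entries on genes, scaled so that all genes of a library sum to 1000000 (CPM). In the tests, a log2 difference is the one fitted by the model to the sums, with its own scaling of libraries. It can differ from the log2 ratio of mean CPM. Between beige and white nuclei of 1 mouse, it is a log2 ratio of levels. The sums hold 406 peaks of the 10 genes, and no member shared a peak with another protein-coding gene.

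Noradrenaline released in the cold acts on β-adrenergic receptors of adipocytes, and these couple through Gs to adenylyl cyclases, which make cAMP from ATP. cAMP releases the catalytic subunits of protein kinase A from their regulatory subunits, and the kinase drives lipolysis and, in beige and brown adipocytes, expression of Ucp1, the uncoupling protein of thermogenesis. Phosphodiesterases end the signal by hydrolyzing cAMP, and insulin restrains lipolysis partly through Pde3b.

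The libraries differed in depth, and this bears on the day1CL values. White and beige adipocyte nuclei together numbered 29 to 933 per mouse, with 48789 to 3348453 entries on genes, and the 3 day1CL mice gave 29, 68 and 654 nuclei. Nuclei of the study's labels were 5935 white adipocytes (Adipocyte), 1069 beige adipocytes (Beige), 665 and 562 adipocyte precursors (APC1, APC2), 351 VEC, 283 VSMC, 1229 Macro, 677 Dend, 11967 Bcell, 3741 Cd4, 4463 Cd8 and 1610 Tcell. The adipocyte marker list reached 1657 CPM in white and 1630 CPM in beige nuclei and at most 582 CPM elsewhere. In the cluster labelled VSMC the skeletal muscle list stood at 1017 CPM and the smooth muscle list at 100 CPM, so it is called here by its label alone. Of 28031 barcode sequences, 4218 occurred in at least 2 mice, always within 1 arm (room temperature, cold or CL) and 1 mouse number. The index sets of the 3 arms were disjoint, so arm and index set cannot be told apart. A further part of the barcode was disjoint between the 3 mouse numbers, so each number is tied to an index set as well.

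Adcy5 is a membrane-bound adenylyl cyclase that is inhibited by calcium (ENSMUSG00000022840, mm10 chr16:35154877-35305738, plus strand, 32 peaks). In each comparison of adipocytes with day0RT its change was the largest of the 10 genes, and 9 of its peaks were called lower in at least 1 comparison. The centres of 4 intronic peaks that fell under CL are printed below for the plus strand of mm10. Capitals mark the nuclear receptor hexamer AGGTCA or its reverse complement TGACCT, and all other bases are in lower case.
Adcy5 2.7 kb from the start, chr16:35157477-35157776: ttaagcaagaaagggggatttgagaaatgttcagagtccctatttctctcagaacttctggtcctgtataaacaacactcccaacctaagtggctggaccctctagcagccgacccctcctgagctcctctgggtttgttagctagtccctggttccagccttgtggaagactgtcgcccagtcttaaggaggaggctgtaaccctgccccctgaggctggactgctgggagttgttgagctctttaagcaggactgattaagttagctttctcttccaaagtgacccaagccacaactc
Adcy5 21.9 kb from the start, chr16:35176610-35176909: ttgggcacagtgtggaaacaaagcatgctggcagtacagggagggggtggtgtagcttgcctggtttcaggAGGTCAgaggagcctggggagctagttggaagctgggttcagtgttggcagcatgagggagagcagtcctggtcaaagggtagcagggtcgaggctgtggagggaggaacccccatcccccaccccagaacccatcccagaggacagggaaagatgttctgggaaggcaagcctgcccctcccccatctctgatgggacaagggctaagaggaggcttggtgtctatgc
Adcy5 33.3 kb from the start, chr16:35188054-35188353: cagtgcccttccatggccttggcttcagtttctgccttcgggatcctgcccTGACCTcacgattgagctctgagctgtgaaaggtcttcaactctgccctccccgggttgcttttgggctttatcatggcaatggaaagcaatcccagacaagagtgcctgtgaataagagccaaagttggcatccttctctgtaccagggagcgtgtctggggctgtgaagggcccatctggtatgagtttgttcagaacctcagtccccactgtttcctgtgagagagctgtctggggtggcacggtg
Adcy5 146.5 kb from the start, chr16:35301206-35301505: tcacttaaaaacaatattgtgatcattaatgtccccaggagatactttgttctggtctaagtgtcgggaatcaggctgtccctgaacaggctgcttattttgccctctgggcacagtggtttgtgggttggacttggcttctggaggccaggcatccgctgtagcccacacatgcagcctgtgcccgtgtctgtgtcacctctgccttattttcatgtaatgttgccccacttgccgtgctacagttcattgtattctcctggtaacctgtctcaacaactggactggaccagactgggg

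Across the 12 cell types, Adcy5 was most accessible in white adipocytes (368 ± 92.2 CPM, SD, n = 21 mice) and APC2 (353 ± 94.0 CPM, n = 19), which differed by less than their spread. Beige adipocytes followed at 219 ± 86.0 CPM (n = 19), below APC2 by more than the larger SD, and APC1 stood at 120 ± 57.3 CPM (n = 20), below beige by more than the larger SD. VEC held 103 CPM, the cluster labelled VSMC 49.1 CPM, Dend 41.5 CPM and Macro 37.0 CPM. Lymphocytes were lowest, from 23.7 CPM in Tcell to 12.6 ± 6.49 CPM in Bcell. The cell types had been clustered on these same entries, so levels across types are a description without a test. These levels, and those of the other genes by cell type, pool the mice of all groups, treated ones included. Adcy5 in white nuclei differed between groups (below), so its likeness to APC2 is shown for the pooled mice only. The genes with the most similar pattern over the 12 types were Serpina1b (Pearson r 0.983), Lamb1 (0.981) and Vwa3a (0.976).

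Prkar2b encodes the RIIβ regulatory subunit of protein kinase A, the form abundant in fat and brain (ENSMUSG00000002997, chr12:31958476-32061296, minus strand, 33 peaks). Its levels were highest in the adipocyte clusters, with 603 ± 158 CPM in beige and 477 ± 78.9 CPM in white nuclei, which overlapped within their spread. The next type, Dend, held 170 ± 72.3 CPM and lay below white adipocytes by more than the larger SD. The remaining 9 types followed in small steps from Tcell at 163 CPM to the cluster labelled VSMC at 70.1 CPM. Mrps6 (r 0.959), Uck1 (0.954) and Lrrn4 (0.953) had the most similar pattern. Per kb of peak, Prkar2b had the highest level of the 10 genes in both white (29.4 CPM per kb) and beige adipocytes (37.2 CPM per kb). Adcy5 was next in white nuclei at 23.3 CPM per kb and stood at 13.9 CPM per kb in beige nuclei. This scale compares genes only roughly. A peak counts at most once per nucleus whatever its length, and peaks with few entries in adipocytes are included. Of the Prkar2b peaks, 27 of 33 had enough entries in adipocytes to be tested, against 44 of 128 for Pde4d.

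The cyclic GMP-inhibited enzymes Pde3a and Pde3b had different patterns. Pde3b, the phosphodiesterase that insulin activates in adipocytes (ENSMUSG00000030671, chr7:114415281-114539251, plus strand, 27 peaks), was high in T cells and adipocytes alike, with 310 ± 46.6 CPM in Cd8, 297 ± 44.6 CPM in Cd4, 268 ± 64.9 CPM in beige and 260 ± 38.2 CPM in white nuclei. It was lowest in APC2 (58.2 CPM) and the cluster labelled VSMC (52.0 ± 46.2 CPM), and no neighbouring pair in its order differed beyond the larger SD. Pde3a, best known from heart and vascular smooth muscle (ENSMUSG00000041741, chr6:141249269-141507448, plus strand, 21 peaks), was highest in the clusters labelled as precursors, with 241 ± 81.3 CPM in APC2 and 153 ± 70.0 CPM in APC1. The study reports that APC2 was also more open at markers of mural cells, Acta2 and Myh11 among them. Pde3a held 92.6 ± 41.0 CPM in beige nuclei and 66.8 ± 15.5 CPM in white ones and at most 21.7 CPM in immune types. The genes most like Pde3a were Cdh6 (r 0.985), Sema3a (0.970) and Vwc2 (0.970), and those most like Pde3b were Sh3kbp1 (0.943), Leo1 (0.932) and Chd1 (0.929).

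The Pde4 genes encode cAMP-specific enzymes that are inhibited by rolipram. Pde4d, the longest member (ENSMUSG00000021699, chr13:108449948-109953461, plus strand, 128 peaks), was highest in the cluster labelled VSMC (1669 ± 432 CPM), followed by beige (991 ± 143 CPM) and white adipocytes (891 ± 77.6 CPM), which differed by less than their spread. White adipocytes lay above Cd4 (654 ± 85.6 CPM) by more than the larger SD, and Bcell was lowest at 287 ± 43.9 CPM. Pde4b (ENSMUSG00000028525, chr4:102087543-102607259, plus strand, 47 peaks) was low in adipocytes and APC1 instead. APC1 lay between beige and white nuclei, with both steps within the larger SD. Pde4b stood at 704 ± 165 CPM in the cluster labelled VSMC, 530 ± 51.8 CPM in Bcell and 326 ± 78.3 CPM in Macro, and 186 ± 53.4 CPM in beige nuclei and 154 ± 17.7 CPM in white ones, its lowest type. Pde4a (ENSMUSG00000032177, chr9:21165714-21213248, plus strand, 11 peaks) was also lowest in white adipocytes (46.3 ± 9.07 CPM), with 75.8 CPM in beige nuclei and its highest level in Macro (141 ± 49.9 CPM). The step from white adipocytes up to APC2, the next type, was within the larger SD. The most similar patterns were those of Zmiz2 (r 0.891), Nat9 (0.879) and Trim17 (0.871) for Pde4a, Catsper2 (0.962), Mvb12a (0.955) and Pgap3 (0.952) for Pde4b, and Picalm (0.931), Nos1 (0.924) and Wfikkn2 (0.922) for Pde4d.

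Pde7b and Pde8a, both cAMP-specific and insensitive to rolipram, had their highest levels in beige adipocytes. Pde7b (ENSMUSG00000019990, chr10:20398004-20725078, minus strand, 50 peaks) held 499 ± 76.0 CPM in beige and 362 ± 46.3 CPM in white nuclei, a step larger than the larger SD, and decreased through APC1 (267 ± 132 CPM) to 20.7 ± 11.5 CPM in Cd8. Pde8a, an enzyme of very high affinity for cAMP (ENSMUSG00000025584, chr7:81213596-81334533, plus strand, 23 peaks), held 234 ± 51.1 CPM in beige, 185 CPM in VEC, 160 CPM in the cluster labelled VSMC and 149 ± 21.7 CPM in white nuclei, and its neighbours in order did not differ beyond the larger SD. Pde10a, which hydrolyzes both cAMP and cGMP and is known best from the striatum (ENSMUSG00000023868, chr17:8525372-8986648, plus strand, 34 peaks), was highest in APC1 (251 ± 86.2 CPM), above Macro (133 ± 48.5 CPM) by more than the larger SD. It held 109 ± 41.5 CPM in beige nuclei and 89.7 ± 21.8 CPM in white ones and 14.8 ± 8.31 CPM in Bcell. Lypd6 (r 0.987), Eda (0.968) and Zfp423 (0.960) were most like Pde7b, Gm37988 (0.967), Mgll (0.927) and Atp5g1 (0.923) most like Pde8a, and Sestd1 (0.947) and Pld1 (0.934) were among those most like Pde10a. In white adipocytes the phosphodiesterases ranged from 18.9 CPM per kb of peak for Pde3b to 6.24 CPM per kb for Pde10a. In beige adipocytes Pde7b (21.4 CPM per kb) and Pde8a (20.3 CPM per kb) came first among them.

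**Figure D1:**
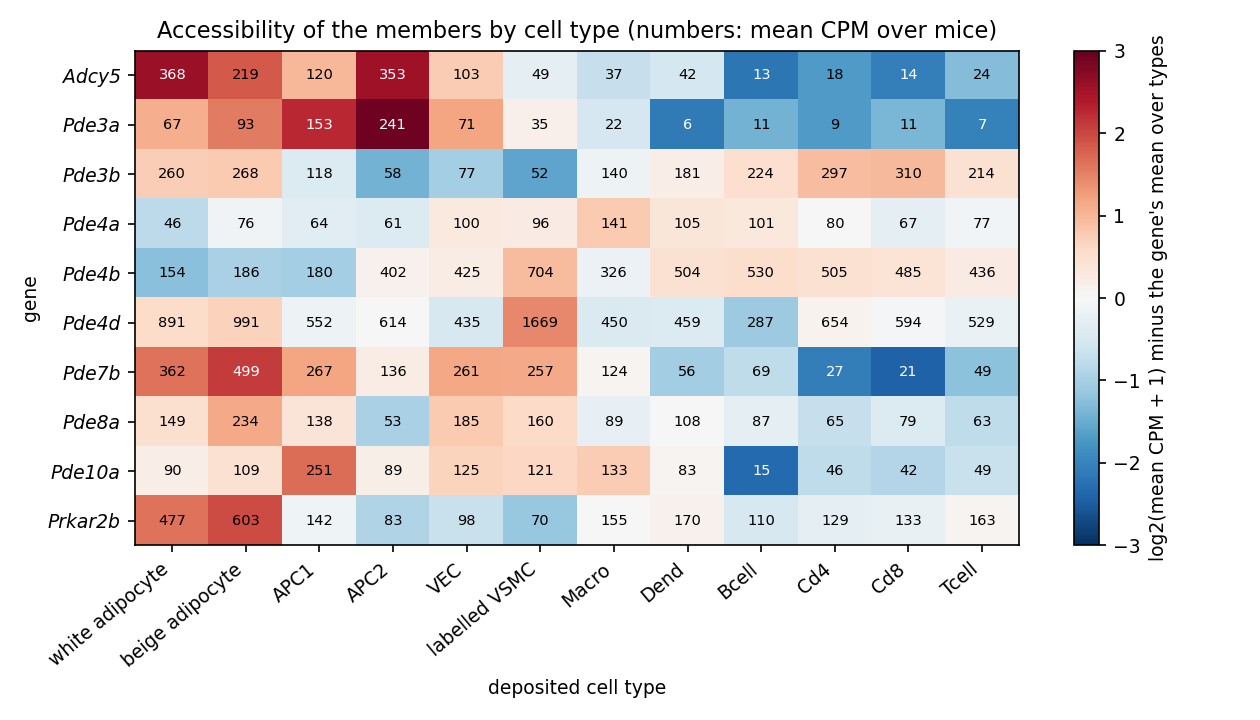
Heat map of the 10 genes (rows) in 12 cell types (columns): the color is log2(mean CPM + 1) minus the gene's own mean over the types. The number in each cell is the mean CPM over the mice of all groups. Adcy5 is highest in white adipocytes (368 CPM) and APC2 (353 CPM), Pde7b and Pde8a in beige adipocytes (499 and 234 CPM), and Pde4b is lowest in white adipocytes (154 CPM).

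Within mice, 9 of the 10 genes had a higher median level in beige than in white nuclei of the same mouse, and Adcy5 alone was lower. With promoter peaks alone, meaning peaks within 2000 bases of the gene start, the count was 4. Pde4b has 0 peaks by this rule, though 2 of its peaks lie over other starts of its coding transcripts. The share of all genes given next is for all peaks of a gene, and none is given for promoter peaks. The comparison covers the 19 mice with at least 10 beige nuclei, and of all 14409 genes tested in adipocytes 44.7% had a positive median, with an all-gene median log2 difference of -0.04. Because beige nuclei were told from white by these entries, the differences are given as a description. Ucp1, which the study lists among the genes most enriched in its beige cluster, had a median log2 difference of 2.27, though it was -2.39 in the lowest mouse. It is therefore no independent check of the labels.

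Adcy5 was lower in beige than in white nuclei in 19 of 19 mice, with a median log2 difference of -0.88 (range -1.53 to -0.07), at the 3.05th percentile of all genes. Pde7b and Pde8a were higher in beige nuclei in 19 of 19 mice. Their median log2 differences were 0.48 (0.06 to 0.96, 95.4th percentile) and 0.52 (0.05 to 1.50, 96.3rd percentile). Pde4a followed with 0.50 (17 of 19 mice, -0.23 to 1.81, 95.9th percentile) and Prkar2b with 0.30 (15 of 19, -0.22 to 0.96, 88.1st percentile). The remaining 5 genes were nearer to the middle of all genes. Pde3a, Pde4b and Pde10a each had a median of 0.20, in 16, 14 and 13 of 19 mice, Pde4d had 0.13 in 17 mice and Pde3b 0.05 in 11 mice.

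**Figure D2:**
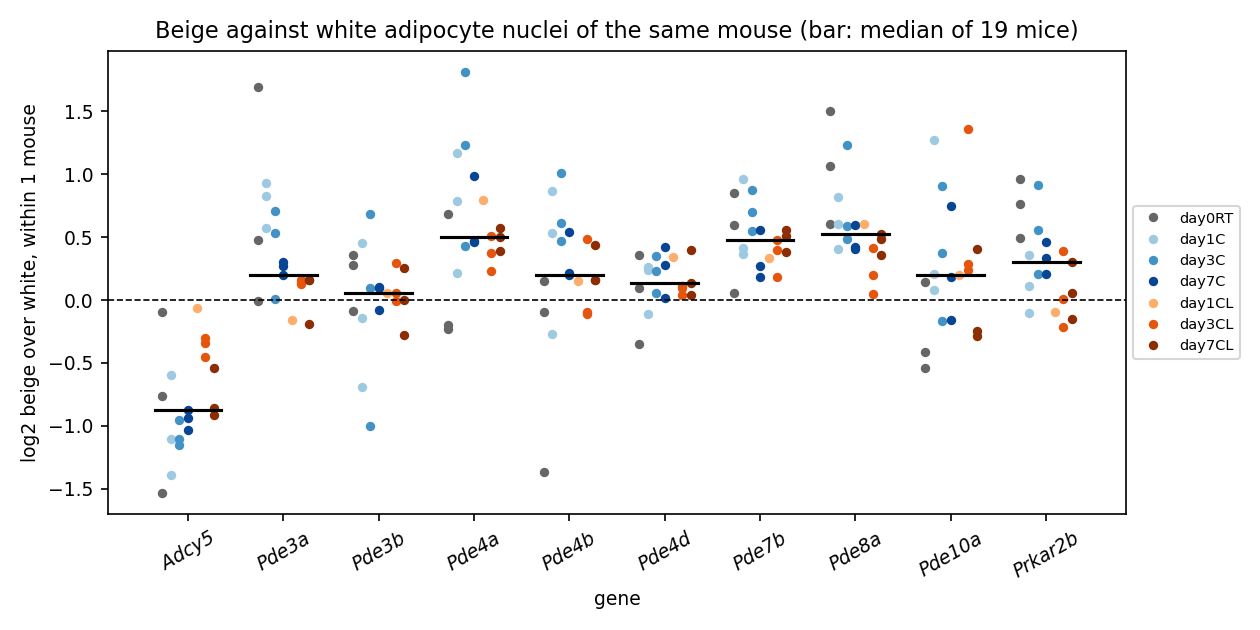
Log2 ratio of the beige to the white adipocyte level (vertical axis) for each of the 10 genes, with 1 dot per mouse colored by group and a bar at the median of 19 mice. All Adcy5 dots lie below 0 (median -0.88) and all Pde7b and Pde8a dots above 0 (medians 0.48 and 0.52).

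The next question was whether cold or CL changed the accessibility of these genes in adipocytes. White and beige nuclei were summed per mouse and tested by the quasi-likelihood test of edgeR over 14409 genes, with all 21 mice in 1 fit and Benjamini-Hochberg adjustment. All 6 treated groups were compared with the same 3 day0RT mice, so the 6 comparisons are not independent of each other. In summed entries, fewer open nuclei and less open DNA per nucleus cannot be told apart. P-values set each difference against a spread between mice that was estimated from all groups together and partly shared across genes.

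Adcy5 fell in all 6 treated groups. Before treatment the 3 mice held 459, 545 and 545 CPM. After cold they held 434, 338 and 292 CPM on day 1, 334, 415 and 437 CPM on day 3, and 239, 318 and 342 CPM on day 7. After CL they held 226, 293 and 314 CPM on day 1, 252, 255 and 290 CPM on day 3, and 257, 285 and 296 CPM on day 7. Each of the 18 treated mice lay below each day0RT mouse. The log2 differences in the cold were -0.51 (SE 0.12, adjusted p = 0.0349), -0.42 (SE 0.11, adjusted p = 0.0286) and -0.78 (SE 0.12, adjusted p = 2.7e-06) on days 1, 3 and 7. Under CL they were -0.78 (SE 0.14, adjusted p = 1.2e-04), -0.93 (SE 0.11, adjusted p = 1.28e-08) and -0.89 (SE 0.12, adjusted p = 7.17e-08). On the linear scale Adcy5 fell by 47.5% at day3CL and by 25.3% at day3C. The calls at day7C, day3CL and day7CL held without any 1 mouse of the groups compared. The day1C call was lost without day0RT replicate 2 or 3 or day1C replicate 2 or 3 (adjusted p = 0.133 to 0.322), the day3C call without day0RT replicate 2 or 3 or day3C replicate 1 (0.109 to 0.371), and the day1CL call without day1CL replicate 3 (0.0902). The day1C and day3C calls also did not pass with DESeq2 (adjusted p = 0.0742 and 0.0984), with nuclei of at least 2000 entries (0.183 and 0.0817) or with promoter peaks alone (0.639 and 0.222).

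Adcy5 was also lower among the nuclei labelled white in 4 of the 6 treated groups. These labels were drawn from the same entries. Beige nuclei made up 7.69 to 12.2% of adipocyte nuclei in day0RT mice, 26.1 to 32.5% at day7C and 14.5 to 23.5% at day7CL. In white nuclei the means were 534 ± 41.1 CPM at day0RT, 355 ± 58.5 CPM at day7C, 273 ± 18.5 CPM at day3CL and 305 ± 30.2 CPM at day7CL (SD, n = 3). The log2 differences from day0RT were -0.57 (adjusted p = 0.00227) at day7C, -0.77 (2.05e-04) at day1CL, -0.94 (4.46e-09) at day3CL and -0.82 (7.78e-07) at day7CL. At day1C and day3C they were -0.47 and -0.36 and did not pass the threshold (adjusted p = 0.0528 and 0.0847). The adipocyte marker list moved as well in the adipocyte libraries: its summed level was 1665 to 1956 CPM at day0RT, 1844 to 2066 CPM at day1C, 1517 to 1730 CPM at day3C, 1409 to 1593 CPM at day7C, 1373 to 1601 CPM at day1CL, 1478 to 1592 CPM at day3CL and 1439 to 1730 CPM at day7CL. Of its 6 genes, 0, 3 and 5 fell on days 1, 3 and 7 of cold and 2, 4 and 4 on the same days of CL, and 1 rose at day3C, day3CL and day7CL. The part of this list in the Adcy5 result was not tested in any group.

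Prkar2b passed the threshold in none of the 6 comparisons with day0RT. Its levels were 524, 566 and 499 CPM at day0RT, and the lowest group mean was that of day1CL with 492, 309 and 450 CPM. The day1CL and day3CL mice all lay below the day0RT mice, and the other 4 groups overlapped them. The log2 difference at day1CL was -0.33 (95% interval -0.59 to -0.08, adjusted p = 0.156) and that at day7CL 0.02 (-0.19 to 0.24, adjusted p = 0.937).

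**Figure D3:**
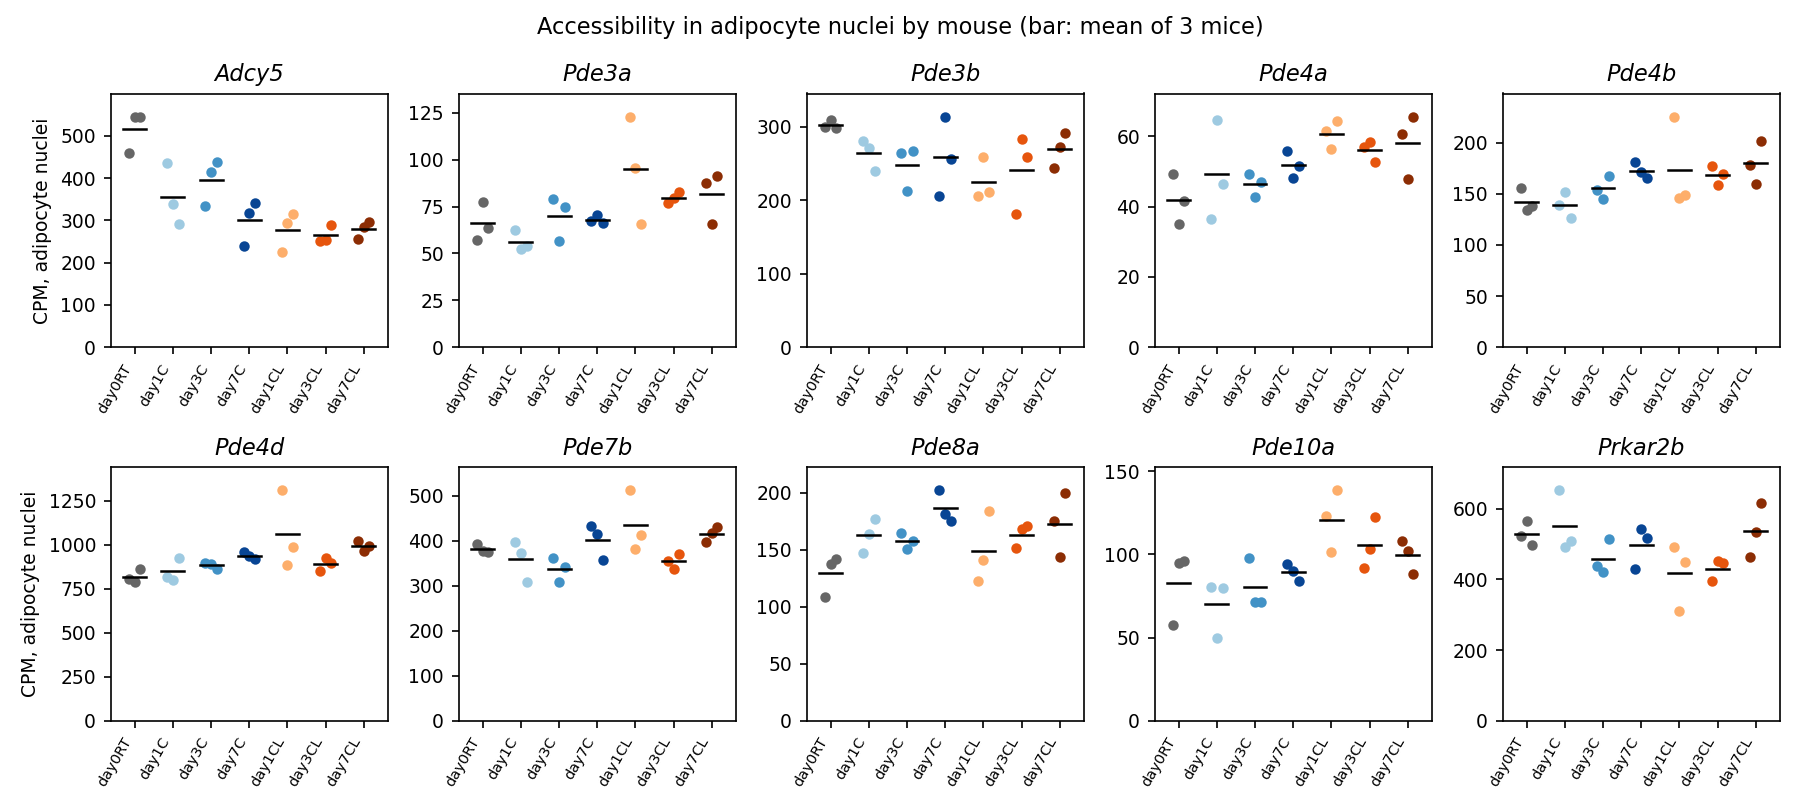
Level in adipocytes (CPM, vertical axis from 0) of each of the 10 genes in its own panel, with 1 dot per mouse, 3 mice in each of 7 groups, and a bar at the group mean. All 18 treated mice lie below the 3 day0RT mice for Adcy5, and the groups of the other genes lie closer together.

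Of the phosphodiesterases, Pde8a, Pde4d and Pde10a rose in at least 1 treated group. Pde8a held 109, 137 and 142 CPM at day0RT, 202, 181 and 176 CPM at day7C, and 176, 144 and 200 CPM at day7CL. Both day-7 groups lay above all day0RT mice. The log2 difference was 0.50 (SE 0.14, adjusted p = 0.0137) at day7C and 0.40 (SE 0.13, adjusted p = 0.0458) at day7CL. In the other 4 groups it was 0.28 to 0.39 and did not pass (adjusted p = 0.0966 to 0.516). The day7C call was lost without day0RT replicate 1 (adjusted p = 0.148) or day7C replicate 1 (0.0948), and the day7CL call without any 1 of the day0RT mice or without day7CL replicate 1 or 3 (0.0611 to 0.295). In white nuclei alone the differences were 0.44 (adjusted p = 0.117) and 0.41 (0.0575), and with promoter peaks alone 0.11 (0.861) and 0.05 (0.941). The day7CL call did not pass with DESeq2 either (adjusted p = 0.164).

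Pde4d rose at day7CL only in this test, from 807, 788 and 861 CPM at day0RT to 1022, 967 and 991 CPM. The groups did not overlap, and the log2 difference was 0.28 (SE 0.09, adjusted p = 0.0303). That call was lost without day0RT replicate 1 or 2 or day7CL replicate 1 (adjusted p = 0.0941 to 0.188). In white nuclei alone the difference was 0.27 (0.0535), and with peaks that lie on no other gene 0.24 (0.0667). Since no member shares a peak, the latter setting left the Pde4d sums unchanged and altered only those of other genes. At day7C the difference was 0.19 (95% interval 0.01 to 0.36, adjusted p = 0.227).

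Pde10a was higher at day1CL than at day0RT and than at day1C. The mice held 57.3, 95.0 and 96.1 CPM at day0RT, 80.4, 49.7 and 80.1 CPM at day1C, and 123, 101 and 139 CPM at day1CL. All day1CL mice lay above all mice of the other 2 groups, on day1CL counts of 6, 18 and 194. The log2 difference was 0.64 (SE 0.18, adjusted p = 0.0300) against day0RT and 0.83 (SE 0.18, adjusted p = 0.00527) against day1C. Both calls were lost without day1CL replicate 3, the library with 654 of the day1CL nuclei, which left differences of 0.29 and 0.48 (adjusted p = 0.885 and 0.824), and the first also without day0RT replicate 1 (0.44, adjusted p = 0.241). With DESeq2 neither passed (adjusted p = 0.136 and 0.0840). In white nuclei alone the difference from day0RT was 0.59 (adjusted p = 0.0852) and that from day1C 0.86 (0.00858). With nuclei of at least 2000 entries they were 0.51 (0.193) and 0.85 (0.0302). At day3CL the level was 92.0, 103 and 123 CPM, with a log2 difference from day0RT of 0.39 (adjusted p = 0.137).

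Pde3b, the adipocyte enzyme of insulin signaling, did not pass the threshold and had negative log2 differences in all 6 treated groups, from -0.46 at day1CL (95% interval -0.76 to -0.17, adjusted p = 0.0718) to -0.18 at day7CL (-0.42 to 0.06, adjusted p = 0.401). The mice held 299, 310 and 299 CPM at day0RT and 205, 259 and 212 CPM at day1CL, and these groups did not overlap. At day1CL it passed with the mouse number as a replicate block (-0.49, adjusted p = 0.0467) and with peaks that lie on no other gene (-0.49, 0.0466). The latter setting left the Pde3b sums unchanged and altered only those of other genes. Pde4a had positive differences in all 6 groups, up to 0.54 at day1CL (95% interval 0.12 to 0.96, adjusted p = 0.170), with 49.2, 35.2 and 41.7 CPM at day0RT and 61.5, 56.3 and 64.4 CPM at day1CL. The day1CL values of Pde4a rest on counts of 3, 10 and 90. Pde4b, Pde3a and Pde7b also did not pass. Their differences ranged from -0.05 to 0.33 for Pde4b, -0.15 to 0.37 for Pde3a and -0.16 to 0.12 for Pde7b.

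Markers of other cell types also moved in the adipocyte libraries. The smooth muscle list summed to 144 to 149 CPM at day0RT, 155 to 176 CPM at day7C, 188 to 212 CPM at day3CL and 174 to 187 CPM at day7CL, and 1 of its 3 tested genes rose in each of the last 2 groups. The B cell list summed to 113 to 152 CPM at day0RT, 86.7 to 100.2 CPM at day7C and 67.5 to 82.0 CPM at day1CL, with 1 of 3 genes lower in both. The progenitor list stood at 63.7 to 95.0 CPM at day0RT and 68.7 to 80.0 CPM at day7CL, and none of its 3 tested genes was called in any comparison with day0RT. The macrophage list summed to 33.6 to 52.8 CPM at day0RT, 53.8 to 73.2 CPM at day3C, 41.0 to 56.3 CPM at day1CL and 47.3 to 61.5 CPM at day7CL. Of its 3 tested genes, 1 rose at day7CL. The part of these lists in the changes of Pde4d, Pde8a and Pde10a was not tested.

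Against the share of all genes called in each comparison, 1 of 10 members was called at day1C (background 0.34% of genes), 1 at day3C (1.64%), 2 at day7C (5.08%), 2 at day1CL (2.61%), 1 at day3CL (4.78%) and 3 at day7CL (7.8%). Adcy5 was the lower gene in each of the 6. The higher genes were Pde8a at day7C, Pde10a at day1CL, and Pde4d and Pde8a at day7CL. The median log2 difference of the 10 members was -0.06, 0.07 and 0.08 on days 1, 3 and 7 of cold and 0.12, 0.18 and 0.29 on the same days of CL, with the median of all genes between -0.01 and 0.00. Between 4 and 8 of the 10 differences were positive. The members were chosen with earlier results of these data known. No excess over the background is therefore read from these counts and medians or from the later counts. With all 6 treated groups averaged, 2 of 10 members were called (background 4.18%): Adcy5 fell (-0.72, SE 0.09, adjusted p = 6.99e-08) and Pde8a rose (0.37, SE 0.11, adjusted p = 0.0430), the latter lost without any 1 of 11 of the 21 mice (adjusted p = 0.0508 to 0.352, the highest without day0RT replicate 1).

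The 2 stimuli were then compared with each other at the same day. Adcy5 was lower under CL than in cold at day 3, with a log2 difference of -0.51 (SE 0.11, adjusted p = 0.00257) and no overlap between 252, 255 and 290 CPM and 334, 415 and 437 CPM. Without day3C replicate 3 or day3CL replicate 2 the adjusted p was 0.0543 or 0.0926, and in white nuclei alone the difference was -0.59 (2.22e-04). At day 1 the difference was -0.27 (95% interval -0.54 to 0.00, adjusted p = 0.400) and at day 7 -0.11 (-0.34 to 0.11, adjusted p = 0.866). Prkar2b at day 1 stood at -0.43 (95% interval -0.68 to -0.18, adjusted p = 0.0743). It passed with the mouse number as a replicate block (-0.48, adjusted p = 0.0432), with peaks that lie on no other gene (-0.46, 0.0413) and without day1C replicate 3 (0.0417). The setting with peaks on no other gene left the Prkar2b sums unchanged and altered only those of other genes.

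Counts of members called in these contrasts were 1 of 10 at day 1 (Pde10a, background 0.923%), 1 at day 3 (Adcy5, 1.45%) and 0 at day 7 by edgeR and by DESeq2 (0.111%), where 1 member, Pde3a, had an unadjusted p under 0.05 (log2 difference 0.30, adjusted p = 0.532). The share of all genes at that unadjusted threshold is not given. Over all 3 days, CL against cold gave 2 of 10 (2.76%). Pde10a was higher under CL (0.46, SE 0.08, adjusted p = 3.26e-04) and Adcy5 lower (-0.30, SE 0.07, adjusted p = 0.00683), and both were lost without day1CL replicate 3 (adjusted p = 0.355 and 0.122), Adcy5 also without day1C replicate 1 (0.0912). The phosphodiesterases other than Pde10a passed none of these contrasts, and Pde8a stood at 0.10, 0.08 and -0.10 on the 3 days.

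**Figure D4:**
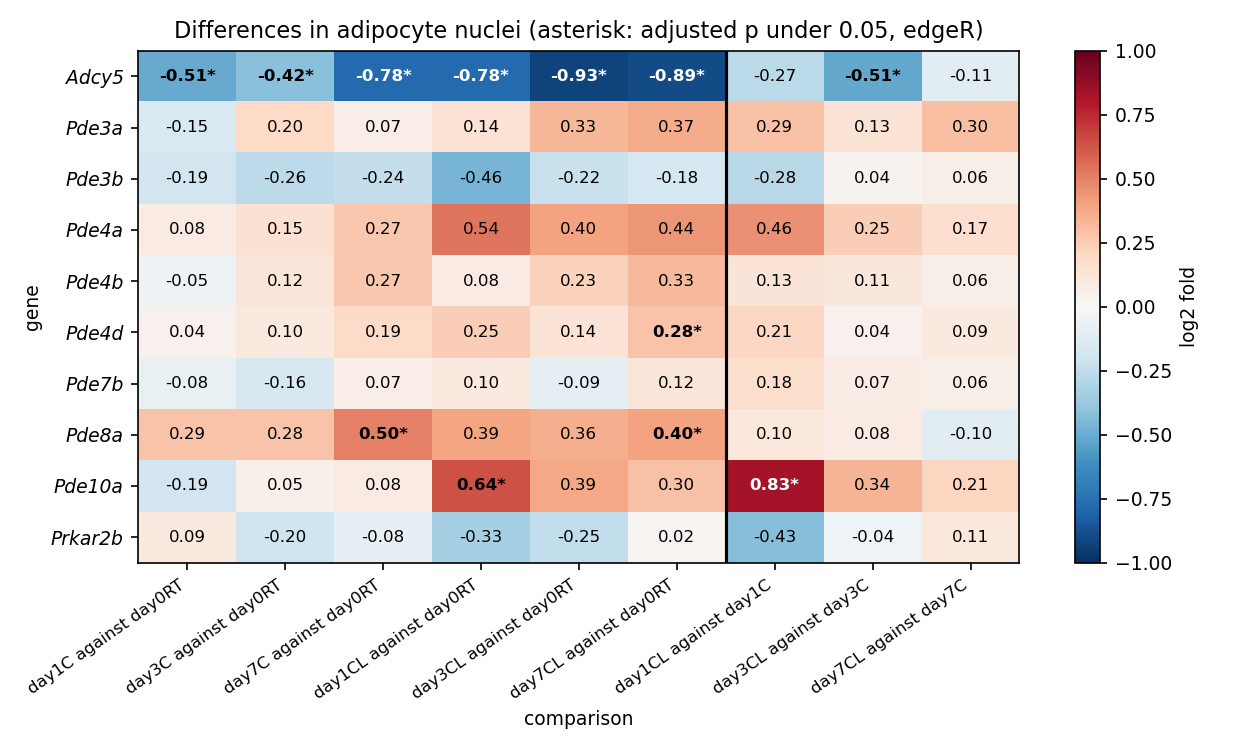
Heat map of the log2 difference in adipocytes for the 10 genes (rows) in 6 comparisons with day0RT and 3 of CL with cold (columns), with the value in each cell and an asterisk where the adjusted p of edgeR was under 0.05. The Adcy5 row is negative throughout (-0.93 at day3CL), and the strongest positive cell is Pde10a in day1CL against day1C (0.83).

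Single peaks showed where in the genes the differences lay. Of the 406 member peaks, 137 had enough entries to be tested among 47835 peaks, from 44 for Pde4d and 27 for Prkar2b to 1 for Pde4a. Member peaks called were 0 at day1C (background 0.211% of peaks), 1 at day3C (1.25%), 5 at day7C (3.1%), 4 at day1CL (2.02%), 10 at day3CL (3.41%) and 11 at day7CL (4.13%), and in CL against cold 2 on day 1 (0.456%), 3 on day 3 (1.74%) and 0 on day 7 (0.023%). In the contrasts with 0 calls by edgeR, 11 of the 137 member peaks at day1C and 7 in day 7 of CL against cold had an unadjusted p under 0.05. The share of all peaks at that unadjusted threshold is not given, so no excess of member peaks is read from these counts. In all, 15 distinct peaks were called, 9 of them in Adcy5.

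Among the 20 tested Adcy5 peaks, 17 to 20 had a negative difference in each of the 6 comparisons with day0RT, and 8 were called lower at day3CL and at day7CL. They reached from the first exon to the last part of the gene. The peak 0.924 kb from the start, in the first exon and its untranslated part, held 24.9, 25.1 and 24.7 CPM at day0RT (for a peak, CPM over the entries on all peaks), 8.69, 9.10 and 11.0 CPM at day3CL and 8.02, 10.5 and 5.92 CPM at day7CL. The groups did not overlap, with log2 differences of -1.19 (adjusted p = 0.00175) and -1.39 (3.64e-04). The intronic peak at 2.7 kb, printed above, held 19.9, 8.37 and 21.0 CPM at day0RT and 3.88, 3.23 and 3.55 CPM at day7CL (-1.90, adjusted p = 8.29e-05), and 5.22, 2.41 and 6.59 CPM at day3CL (-1.78, adjusted p = 1.21e-04). The peak at 21.9 kb, printed above with an AGGTCA, held 19.9, 11.2 and 17.4 CPM at day0RT, 0.841, 4.71 and 6.87 CPM at day7C, and 1.74, 3.21 and 2.20 CPM at day3CL. The differences were -2.11 (adjusted p = 5.17e-05) at day3CL, -1.86 (6.76e-04) at day7CL, -1.65 (0.00755) at day7C and -1.63 (0.0420) at day1CL.

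The peak at 146.5 kb, near the gene's end, was called in 5 of the 6 comparisons with day0RT. It held 9.97, 22.3 and 27.4 CPM at day0RT, 9.58, 9.63 and 5.25 CPM at day3C, 4.21, 13.0 and 5.62 CPM at day7C, 10.4, 12.3 and 7.47 CPM at day3CL and 7.25, 3.23 and 5.92 CPM at day7CL. Its day0RT mice were spread more widely than those of the first exon, and the day7C and day3CL groups overlapped them. The differences ran from -0.90 at day3CL (adjusted p = 0.0471) to -2.07 at day1CL (8.38e-04), with -1.53 (4.66e-04) at day7CL. The day1CL mice held 0, 0 and 4.51 CPM, on counts of 0, 0 and 8. The peak at 33.3 kb held 8.31, 25.1 and 12.8 CPM at day0RT and 0, 2.41 and 5.27 CPM at day3CL, and its difference was -1.68 (adjusted p = 0.00383). Of all mice, day0RT replicates 2 and 3 had the highest levels of this peak. Having enough entries to be tested was therefore not independent of the group. The peaks at 1.7, 24.1 and 48.8 kb fell at day3CL (-1.19, -0.92 and -1.07, adjusted p = 0.0119, 0.0072 and 0.0143) and at day7CL (-1.26, -0.88 and -1.06, adjusted p = 0.00879, 0.0111 and 0.0171), and the last also at day1CL (-1.36, 0.0291). The most accessible Adcy5 peak, at 62.0 kb (chr16:35216418-35217427, intron), was called in no comparison.

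The calls of the 2.7 kb and first-exon peaks at day7CL and of the 21.9 kb peak at day3CL held without any 1 mouse of the groups compared. The others depended on single mice. For the 21.9 kb peak, day7CL was lost without day7CL replicate 1 (adjusted p = 0.102), day7C without day0RT replicate 3 or day7C replicate 1 (0.0924 and 0.107), and day1CL without 4 mice (0.0657 to 0.658). For the 2.7 kb peak, day3CL was lost without day0RT replicate 3 or day3CL replicate 2 (0.0636 and 0.0514), and for the first exon day3CL without day0RT replicate 3 (0.0597). The 33.3 kb peak could be tested in only 5 of 6 refits, and it lost day3CL without day0RT replicate 2 or day3CL replicate 2 (0.0545 and 0.0987). The 146.5 kb peak lost every call without day0RT replicate 3 (0.160 to 0.722). Other mice mattered for the 146.5 kb peak as well. Of 6 refits each, its calls held in 4 at day1CL, 2 at day3C, 1 at day3CL, 4 at day7C and 5 at day7CL. The calls at 1.7, 24.1 and 48.8 kb were each lost without 1 or more of the mice compared, the 24.1 kb peak at day7CL without day7CL replicate 1 (0.377) and the 1.7 kb peak at day3CL without day3CL replicate 2 (0.308).

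Of these peaks, those at 2.7 and 21.9 kb also had lower means in beige than in white nuclei, a description without a test. The 2.7 kb peak held 9.74 CPM in white, 2.32 CPM in beige and 0.780 CPM in APC2 nuclei, and the 21.9 kb peak 7.96 CPM in white and 1.66 CPM in beige nuclei. The first-exon peak was shared more evenly, with 15.0 CPM in white, 11.6 CPM in beige and 22.5 CPM in APC2 nuclei. The 62.0 kb peak that was not called held 38.4, 29.8 and 6.97 CPM in the same 3 types.

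**Figure D5:**
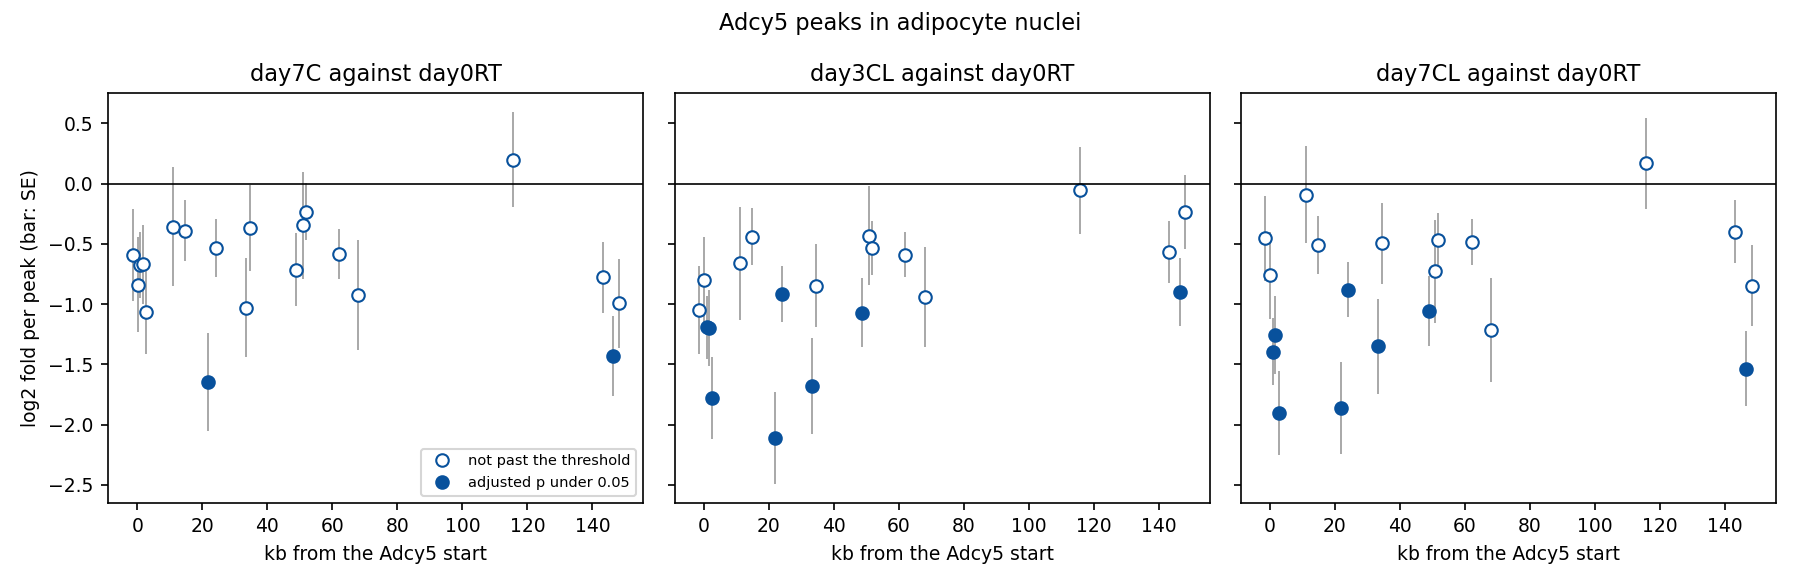
Log2 difference from day0RT (vertical axis, error bars SE) of the 20 tested Adcy5 peaks by distance from the gene start (horizontal axis, kb), in 3 panels for day7C, day3CL and day7CL, with filled dots for an adjusted p under 0.05. Filled dots number 2 in day7C and 8 in each CL panel, and nearly all dots lie below 0.

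Peaks that rose were few, and 2 of them, in introns of Pde4d and Pde8a, rose at day 7 of both stimuli. Their centres are printed for the plus strand of mm10, with TGACCT in capitals where present.
Pde4d 616.9 kb from the start, chr13:109066672-109066971: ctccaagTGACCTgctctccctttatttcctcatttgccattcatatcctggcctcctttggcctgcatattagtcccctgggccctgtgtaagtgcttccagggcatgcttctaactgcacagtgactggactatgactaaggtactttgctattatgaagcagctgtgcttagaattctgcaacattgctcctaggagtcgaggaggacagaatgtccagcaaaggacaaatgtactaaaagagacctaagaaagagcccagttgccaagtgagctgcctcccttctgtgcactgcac
Pde8a 97.9 kb from the start, chr7:81311364-81311663: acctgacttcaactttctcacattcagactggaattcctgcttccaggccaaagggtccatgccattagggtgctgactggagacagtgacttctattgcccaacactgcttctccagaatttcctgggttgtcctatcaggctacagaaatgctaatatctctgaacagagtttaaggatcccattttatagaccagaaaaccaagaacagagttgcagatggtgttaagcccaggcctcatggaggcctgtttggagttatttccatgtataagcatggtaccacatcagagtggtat

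The Pde4d peak held 11.6, 8.37 and 13.7 CPM at day0RT, 33.6, 36.5 and 28.1 CPM at day7C, 27.8, 33.5 and 26.3 CPM at day3CL and 27.4, 21.8 and 22.5 CPM at day7CL. None of these 3 groups overlapped day0RT. It rose by 1.30 on the log2 scale at day7C (adjusted p = 0.00102), 1.27 at day3CL (4.17e-04) and 1.03 at day7CL (0.00968). The first 2 calls held without any 1 mouse, and the day7CL call was lost without any 1 of the day0RT mice or day7CL replicate 1 (0.0542 to 0.245). White and beige nuclei held 21.5 and 23.5 CPM of this peak. A second Pde4d peak, at 1195.62 kb (chr13:109645223-109645921), fell at day3CL by 0.76 on the log2 scale (adjusted p = 0.0377), a call lost without any 1 of 4 mice (0.0730 to 0.235).

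The Pde8a peak held 4.99, 8.37 and 3.65 CPM at day0RT, 12.6, 14.1 and 13.7 CPM at day7C and 14.2, 9.68 and 15.4 CPM at day7CL. By cell type it was highest in beige nuclei, with 31.1 CPM, 8.07 CPM in white nuclei and 3.03 CPM in the next type, the cluster labelled VSMC. The differences were 1.24 (adjusted p = 0.0496) at day7C and 1.27 (0.0254) at day7CL, in the groups with the highest shares of beige nuclei (above). The part of those shares in the difference was not tested. The day7C call was lost without any 1 of the 6 mice (0.0620 to 0.365) and the day7CL call without day0RT replicate 1 or 3 or day7CL replicate 1 (0.0879 to 0.294). At the Pde8a promoter peak (chr7:81212218-81214300) the differences ranged from -0.13 to 0.23 over the 6 comparisons with day0RT, and none passed (adjusted p = 0.772 to 0.971).

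Pde3b, which was not called as a gene on day 7 of either stimulus, had a lower promoter peak (chr7:114414265-114416875). It held 93.1, 89.3 and 68.5 CPM at day0RT, 43.7, 62.5 and 53.0 CPM at day7C and 47.6, 53.3 and 71.0 CPM at day7CL. The day7C mice lay below all day0RT mice, and 1 day7CL mouse lay among them. The differences were -0.59 (adjusted p = 0.0229) and -0.53 (0.0241), lost without 4 and 3 of 6 mice (day0RT replicate 1 or 2 and replicate 1 of the treated group in both, and day7C replicate 3 for day7C, adjusted p = 0.0547 to 0.367).

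Between CL and cold, 5 member peaks were called on day 1 or day 3. On day 1 the Adcy5 peak at 14.8 kb (-1.16, adjusted p = 0.0380) and a Prkar2b peak at 5.3 kb (chr12:32055792-32056216, intron, -1.31, adjusted p = 0.0360) were lower under CL, and with the mouse number as a replicate block neither was called. On day 3 the Adcy5 peak at 21.9 kb was lower (-1.36, adjusted p = 0.0112), while the Pde4d peak at 616.9 kb (0.73, adjusted p = 0.00208) and a Pde10a peak at 127.6 kb (chr17:8652479-8653375, intron, 1.29, adjusted p = 8.25e-04) were higher. The Pde10a peak held 10.4, 14.7 and 13.6 CPM at day3CL, 6.07, 4.81 and 0.874 CPM at day3C, and 1.66, 5.58 and 10.0 CPM at day0RT. Its day3CL mice lay above all mice of the other 2 groups, and the call was lost without day3CL replicate 2 (adjusted p = 0.163).

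The cAMP response element (CRE, TGACGTCA), the site bound by CREB, was searched in the central 300 bases of each peak on both strands, where it reads the same. It was present in 5 of 406 member peaks (1.23%) and in 0.478% of all 189598 peaks. Over the whole length of the peaks, 7 CREs were found in Pde4b, Pde4d and Pde7b, none of them in a called peak. The 6 outside an untranslated exon are printed with the CRE in capitals, since this is the element through which CREB is known to respond to cAMP.
Pde4b 344.9 kb from the start, chr4:102432234-102432301: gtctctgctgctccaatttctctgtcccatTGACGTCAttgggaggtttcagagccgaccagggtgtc
Pde4b 423.6 kb from the start, chr4:102511059-102511126: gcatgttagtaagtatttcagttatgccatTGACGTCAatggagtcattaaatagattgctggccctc
Pde4d 1372.6 kb from the start, chr13:109822567-109822634: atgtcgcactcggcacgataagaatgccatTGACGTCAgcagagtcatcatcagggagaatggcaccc
Pde7b 219.5 kb from the start, chr10:20505689-20505756: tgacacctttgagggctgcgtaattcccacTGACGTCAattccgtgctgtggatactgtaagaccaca
Pde7b 51.2 kb from the start, chr10:20673949-20674016: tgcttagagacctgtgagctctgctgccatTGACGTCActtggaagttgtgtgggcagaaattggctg
Pde7b 0.1 kb from the start, chr10:20725147-20725214: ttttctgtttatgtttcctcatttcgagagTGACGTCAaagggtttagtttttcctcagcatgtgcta

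The last lies in the promoter peak of Pde7b and the others in introns. Their peaks were open in adipocytes at 9.85 and 7.93 CPM in Pde4b, 12.1 CPM in Pde4d and 20.1, 18.5 and 21.2 CPM in Pde7b (means over 21 mice). Of the other motifs, the ESRR site TCAAGGTCA was in 2 member peaks (0.493%, all peaks 0.632%) and the NR4A site AAAGGTCA in 12 (2.96%, all peaks 2.65%). The shorter letters TGACG, which the CRE contains, were in 80 member peaks (19.7%, all peaks 12.5%), and AGGTCA, which both receptor sites contain, in 81 (20.0%, all peaks 21.0%), each on either strand. A match of letters describes the sequence and is not evidence of binding.

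Other genes of the cAMP pathway were followed as a list of 46, of which 44 were tested in adipocytes. In the cold, the numbers called higher and lower were 0 and 0 at day1C (background 0.34% of genes), 0 and 1 at day3C (1.64%) and 3 and 1 at day7C (5.08%). Under CL they were 0 and 1 at day1CL (2.61%), 2 and 3 at day3CL (4.78%), and 2 and 2 at day7CL (7.8%). Results without each mouse are given for the members only, so how far the calls of this list rest on single mice is not shown. Rapgef3, which encodes the cAMP-activated exchange factor Epac1, fell at day3C (-0.80, adjusted p = 0.00559), day7C (-1.02, 2.61e-04), day3CL (-0.74, 0.00408) and day7CL (-0.96, 1.63e-04). Adrb3, the receptor that CL-316,243 binds, fell at day1CL (-0.68, adjusted p = 0.00862). Among the other cyclases, Adcy1 rose at day3CL (1.32, adjusted p = 0.00135) and day7CL (1.24, 0.00284), and Adcy9 rose at day7C (0.49, 0.00879).

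Named after their values were seen, since they were not the lowest in p of their direction, Adcy9 also rose at day3CL (0.56, adjusted p = 0.00158) and day7CL (0.51, 0.00397), Prkar2a, the RIIα subunit, at day7C (0.75, 0.0248) and Adcy10 at day7C (0.41, 0.0479). Akap1, an anchor of protein kinase A, fell at day3CL (-0.45, adjusted p = 0.0135), as did Adcy3 (-0.45, 0.0286), and Adcy6 fell at day7CL (-0.62, 0.00262). In CL against cold the list had 1 gene higher on day 1 (background 0.923% of genes), the phosphodiesterase Pde2a (0.58, adjusted p = 0.0488). It had none on days 3 and 7 (1.45% and 0.111%). Over all days (background 2.76%) Pde2a was higher under CL (0.27, adjusted p = 0.0283) and the receptor gene Adrb1 lower (-0.34, 0.00934).

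Outside adipocytes no member was called by edgeR or DESeq2 in 102 tests, of which 10 had an unadjusted p under 0.05. These covered CL against cold and all treated groups against day0RT in 7 cell types. In that order, genes of any kind with an unadjusted p under 0.05 numbered 79 and 106 of 1452 in APC1. They numbered 108 and 115 of 2015 in APC2, 180 and 177 of 3595 in Macro, and 1140 and 1471 of 11486 in Bcell. In Cd4 they were 676 and 845 of 9604, in Cd8 713 and 947 of 10361, and in Tcell 317 and 410 of 5816. No excess of the members is read from their 10. Few genes of any kind were called there: 0% and 0.0689% in APC1, 0% and 0% in APC2, 0% and 0% in Macro, 0.0174% and 0.731% in Bcell, 0% and 0.0416% in Cd4, 0.00965% and 0.0579% in Cd8, and 0% and 0.0172% in Tcell. The lowest adjusted p was 0.134 for Pde7b in Bcell (log2 difference of treated groups from day0RT 0.40, SE 0.13). Pde7b in APC2 stood at 1.16 (adjusted p = 0.449), Prkar2b in Cd8 at 0.41 (0.254) and Pde4d in Bcell, CL against cold, at 0.17 (0.346). Adcy5, at its highest outside adipocytes in APC2, passed no test there, and at the depth of that cluster 2015 genes and 5 members could be tested. VEC, Dend and the cluster labelled VSMC were left out because at least 1 group had fewer than 2 mice with at least 10 nuclei.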

How the data were processed

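Inguinal fat pads of 21 mice were pooled by combinatorial indexing and sequenced in 4 lanes. The authors aligned reads to mm10 with Bowtie2, removed duplicates, mitochondrial reads and doublets, called peaks per cluster with MACS2 and clustered nuclei with Signac. The deposited counts are a matrix of 189598 peaks by 32552 nuclei that holds only 0 and 1, so each count is a nucleus with reads in a peak. Group, mouse and cell type of each nucleus came from the deposited metadata. Gene positions came from GENCODE mouse release 21.

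Entries were summed per mouse and cell type where at least 10 nuclei were present. Sums were tested with edgeR 4.0.16 (R 4.3.3; TMM, filterByExpr with a minimum count of 10, a total of 15 and a proportion of 0.7, quasi-likelihood F test, prior count 2), with Benjamini-Hochberg adjustment over all genes or peaks and a threshold of 0.05. DESeq2 1.42.0 was an alternative. Alternatives and refits without each mouse are given in the closing section. Intervals are 95%. Depth ranges stand in the report and limit the day1CL values most.

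All 10 members are reported in each comparison. Of a list of 46 further pathway genes, the gene with the lowest p in each direction was named where called. The 3 most similar genes were taken by Pearson r of log2(mean CPM + 1) over 12 cell types among 14996 genes with at least 20 CPM in 1 type. Not every gene that this rule gives is reported here. Of called peaks, all were named up to 10 in a comparison, and beyond that those with the lowest p in each direction. The members, lists and tests were chosen with earlier results of these data known. Sequences were read from the mm10 assembly.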

Additional observations from a re-analysis of the deposited data

Results flagged for a closer look

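The difference between the responses to CL and to cold at the same day was itself tested in adipocytes, and it passed for 2 genes and 5 peaks of the members. Pde10a was higher at day1CL than at day1C (log2 difference 0.83) and Adcy5 was lower at day3CL than at day3C (-0.51). Of the peaks on day 1, that of Prkar2b 5.3 kb from the gene start differed by -1.31 and that of Adcy5 at 14.8 kb by -1.16. Both were lost without day1CL replicate 3 (adjusted p = 0.547 and 0.497), the library with most of the day1CL nuclei, and without several other mice. On day 3 the differences were 0.73 for the Pde4d peak at 616.9 kb, -1.36 for the Adcy5 peak at 21.9 kb and 1.29 for the Pde10a peak at 127.6 kb. The Adcy5 peak was lost without any 1 of 4 mice (day3C replicate 2 or 3, day3CL replicate 2 or 3, adjusted p = 0.0625 to 0.138) and the Pde4d peak without day3C replicate 1 or day3CL replicate 2 (0.0612 and 0.428). The index sets of the cold and CL arms were disjoint, so these contrasts cannot be told apart from index set.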

How the results depend on the processing

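No result changed its direction past the threshold. Counts of called members that moved by over 1.5 times are given by setting. The share of all genes or peaks called in each setting is not given. A change in these counts therefore cannot be told from a change in calls of any kind. With DESeq2 the counts were 0 at day1C, 0 at day3C, 1 at day1CL, 0 for day1CL against day1C and 1 for all treated adipocytes against day0RT. With nuclei of at least 2000 entries they were 0, 0 and 1 at day1C, day3C and day1CL. With peaks that lie on no other gene, which altered the sums of other genes but not of the members, they were 1 at day7CL and 2 for day1CL against day1C. With promoter peaks only they were 0, 0 and 1 on days 1, 3 and 7 of cold, 1 at day1CL, 1 at day7CL and 0 for day1CL against day1C. In that setting 4 members were higher in beige nuclei instead of 9, and Pde4b has 0 peaks within 2000 bases of its gene start. With white nuclei only they were 0, 0 and 1 on days 1, 3 and 7 of cold and 1, 2 and 1 on the same days of CL, the 2 being Adcy5 and Pde8a (0.45, adjusted p = 0.0412). With the mouse number as replicate block, day1CL against day1C gave 2 members (Pde10a and Prkar2b) and 0 peaks, and Pde3b passed at day1CL (-0.49, adjusted p = 0.0467). Peaks without the filter gave 0 at day3C, 1 at day1CL, 5 at day3CL, 5 at day7CL and 0 for day1CL against day1C, and peaks of white nuclei gave 1 at day7C, 2 at day1CL, 6 at day7CL and 1 for day1CL against day1C. The causes were not tested. Leaving out the library with fewer than 30 nuclei, chosen after seeing the data, changed no call of a member.

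Without replicates in turn, the members called ranged from 0 to 1 at day1C and day3C, 1 to 2 at day7C, 0 to 2 at day1CL, 1 to 1 at day3CL and 1 to 3 at day7CL. For CL against cold they ranged from 0 to 2 on day 1, 0 to 2 on day 3 and 0 to 0 on day 7, and over all days 0 to 3, with 0 without day1CL replicate 3. For all treated groups they ranged from 1 to 2, and in Bcell, Cd4, Cd8 and Macro from 0 to 0. Peaks ranged from 0 to 1 at day1C and day3C, 1 to 4 at day7C, 0 to 3 at day1CL, 3 to 8 at day3CL and 3 to 11 at day7CL, and in CL against cold from 0 to 2, 0 to 3 and 0 to 0. These refits were not run for APC1, APC2 and Tcell, and the share of all genes or peaks called in each refit is not given. The study describes its batches as independent but the sources do not tie them to mouse numbers, and each number had its own index set. Over 63 pairs with the same number in 2 groups, deviations correlated from -0.123 to 0.116 (median 0.0018), so the numbers were not taken as pairs; a shared batch was not tested further.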
